A study of Mus musculus with 12 samples.

Results

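Acute phase proteins are plasma proteins whose synthesis in the liver changes during infection or injury, and 10 of them are described here: the serum amyloid A genes Saa1, Saa2, Saa3 and Saa4, the orosomucoid genes Orm1 and Orm2, the lipocalin Lcn2, haptoglobin (Hp), haemopexin (Hpx) and the fibrinogen gamma chain (Fgg). They were taken by the gene name printed on the array, which holds 34797 gene names, of which 21198 were tested. Each of the 10 genes had 1 probe, and each probe was well above background on all 12 arrays. Liver RNA of male ICR mice, an outbred strain, 5 weeks old and adapted for 1 week, was measured on 12 Agilent 1-colour arrays at day 7 and day 2, with 1 array per treatment and day. Each day has a G0s2 siRNA array, a control siRNA array (a scrambled sequence), an ATRA+DEN array, a DEN array, an ATRA array and a vehicle array (plain water). DEN is diethylnitrosamine, a liver carcinogen that damages DNA, which the mice drank at 80 mg/L, about 400 µg per day. ATRA is all-trans retinoic acid, the active form of vitamin A, which the mice drank at 30 mg/L, about 150 µg per day. G0s2 encodes an inhibitor of the main triglyceride lipase, and both siRNAs were injected into a vein at 1.6 nmol with a lipid carrier. The last 4 treatments are called uninjected below, so that 4 siRNA arrays are set against 8 uninjected arrays.

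The genotype field gives wild type for the uninjected arrays, control for control siRNA and knockdown for G0s2 siRNA, with no cell type to which an siRNA was directed. It is not stated if 1 mouse or a pool gave the RNA of an array. Nor is it stated if the siRNA mice drank DEN, although the protocol places the injection on the day before DEN. Cdkn1a, the cell cycle inhibitor p21 that p53 switches on after DNA damage, had levels of 6.82 (G0s2 siRNA), 5.56 (control siRNA), 6.62 (ATRA+DEN) and 6.83 (DEN) at day 7, against 2.84 (ATRA) and 1.96 (vehicle). At day 2 its levels were 3.37 (G0s2 siRNA), 4.00 (control siRNA), 3.39 (ATRA+DEN) and 4.02 (DEN), against 2.13 (ATRA) and 1.12 (vehicle). Cdkn1a thus lay on all 4 siRNA arrays nearer to the arrays titled with DEN than to those without it. Mdm2, read as another mark of DNA damage, did not do so on the G0s2 siRNA array of day 2. Its day 2 levels were 3.94 (G0s2 siRNA), 4.31 (control siRNA), 4.81 (ATRA+DEN) and 4.74 (DEN), against 3.45 (ATRA) and 3.51 (vehicle). At day 7 Mdm2 had 5.77 (G0s2 siRNA), 5.25 (control siRNA), 5.72 (ATRA+DEN) and 6.05 (DEN), against 3.75 (ATRA) and 3.83 (vehicle). All levels are log2 values with the array's 75th percentile set to 0. For 3 arrays of day 7 the treatment field goes against the title and source name: the array titled DEN is entered as ATRA, the one titled ATRA+DEN as DEN, and the one titled ATRA as ATRA+DEN. Titles were followed. Cyp26a1, the retinoic acid hydroxylase that retinoic acid induces, had levels of 4.34 (titled ATRA+DEN), 1.35 (titled DEN), 7.10 (titled ATRA) and 2.38 (vehicle) on those day 7 arrays. Both arrays titled with ATRA were thus above vehicle, and the array entered as ATRA was below it. The array entered as ATRA+DEN had the Cdkn1a level of 2.84, against 6.62 and 6.83 on the arrays titled with DEN.

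The arrays lie on 4 slides. The 2 siRNA arrays of day 2 have a slide of their own, as do the 4 uninjected arrays of day 2, so slide and siRNA cannot be told apart at that day. At day 7 one slide holds both siRNA arrays with the ATRA+DEN and ATRA arrays, and another holds DEN and vehicle. The share of probes that cleared the background call ranged over the arrays from 41.0% to 50.7%, and saturation did not occur. G0s2, the targeted gene, had levels of 2.26 in G0s2 siRNA and 3.45 in control siRNA at day 7, a log2 difference of -1.19. At day 2 G0s2 had 1.99 in G0s2 siRNA and 3.84 in control siRNA, a difference of -1.85. G0s2 was lower still, at 0.44, on the ATRA+DEN array of day 2.

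In the acute phase response, cytokines of macrophages such as interleukin 6 and interleukin 1 act on hepatocytes, where the transcription factors STAT3, C/EBP and NF-kB switch on the positive acute phase genes. Saa1 and Saa2 encode the apolipoproteins that replace others on high density lipoprotein during inflammation, Saa3 is made by macrophages and other cells as well as by liver, and Saa4 is known as the constitutive member of the family. Orm1 and Orm2 carry lipophilic drugs and hormones, Lcn2 withholds iron from bacteria by binding their siderophores, Hp and Hpx clear free haemoglobin and haem, and Fgg forms part of the clotting protein fibrinogen.

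The probes of the 4 Saa genes lie within 39.3 kb on chromosome 7 of mouse build mm9, from 53970389 to 54009681. The promoters of Saa1, Saa2, Saa3 and Lcn2 are shown because these genes had the largest differences described below. Each window holds 250 bases before and 50 bases after the RefSeq start on build GRCm38.p6, written 5′ to 3′ on the gene's own strand. Capitals mark matches, on either strand, to the C/EBP motif TTNNGNAA, the STAT motif TTCNNNGAA or the NF-kB motif GGGNNNNNCC. Saa1 lies at chr7:46742931-46743230 (minus strand), Saa2 at chr7:46751583-46751882 (plus strand), Saa3 at chr7:46715627-46715926 (minus strand) and Lcn2 at chr2:32387690-32387989 (minus strand).
Saa1: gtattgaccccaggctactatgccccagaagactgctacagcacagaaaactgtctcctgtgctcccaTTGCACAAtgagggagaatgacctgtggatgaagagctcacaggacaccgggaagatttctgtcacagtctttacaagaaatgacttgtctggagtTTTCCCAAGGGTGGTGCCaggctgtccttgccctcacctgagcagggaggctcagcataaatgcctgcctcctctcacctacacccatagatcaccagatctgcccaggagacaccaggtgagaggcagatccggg
Saa2: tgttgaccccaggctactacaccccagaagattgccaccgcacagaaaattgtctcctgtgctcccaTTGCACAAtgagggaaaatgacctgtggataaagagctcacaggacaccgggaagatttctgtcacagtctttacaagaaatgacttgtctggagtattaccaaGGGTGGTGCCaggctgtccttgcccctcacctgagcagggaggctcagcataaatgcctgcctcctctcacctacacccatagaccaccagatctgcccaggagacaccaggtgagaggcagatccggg
Saa3: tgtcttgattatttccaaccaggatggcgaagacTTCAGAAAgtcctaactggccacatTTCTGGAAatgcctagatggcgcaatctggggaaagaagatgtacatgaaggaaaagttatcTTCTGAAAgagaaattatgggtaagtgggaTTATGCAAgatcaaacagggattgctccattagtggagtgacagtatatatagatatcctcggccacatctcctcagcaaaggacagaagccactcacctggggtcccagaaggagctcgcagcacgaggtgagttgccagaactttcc
Lcn2: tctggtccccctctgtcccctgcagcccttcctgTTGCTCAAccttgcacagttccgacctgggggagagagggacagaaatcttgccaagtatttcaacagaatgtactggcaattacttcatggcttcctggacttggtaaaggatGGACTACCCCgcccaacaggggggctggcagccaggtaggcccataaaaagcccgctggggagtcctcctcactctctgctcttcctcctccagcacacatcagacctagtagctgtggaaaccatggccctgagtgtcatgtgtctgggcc
The windows of Saa1 and Saa2 were identical at 287 of 301 aligned columns (95.3%), whereas those of Saa1 and Saa3 were identical at 50.9%. Saa1 held 2 C/EBP matches and 1 NF-kB match, the second C/EBP match standing directly before the NF-kB match without overlap. Saa2 had the same NF-kB letters and the first of those C/EBP matches. Saa3 held 4 C/EBP matches, and Lcn2 held 1 C/EBP match and 1 NF-kB match. The 8 genes whose promoters were found in the RefSeq table included 7 with a C/EBP match, 5 with an NF-kB match written as above and 0 with a STAT match. Among 32851 mouse promoters of that table, 40.7% held the C/EBP letters, 50.8% the NF-kB letters and 8.30% the STAT letters. A match is a description of letters and not a binding site.

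The transcripts varied by very different amounts over the 12 arrays. Saa3 had the widest range, from 0.92 (ATRA, day 2) to 8.07 (G0s2 siRNA, day 2), a 143-fold span. Saa2, Saa1 and Lcn2 spanned 13.4-fold, 12.5-fold and 12.2-fold, each with its highest level on the G0s2 siRNA array of day 2 and its lowest on the ATRA array of day 2, which for Lcn2 was level with the DEN and vehicle arrays of that day. Saa4 spanned 5.82-fold, with its highest level on the G0s2 siRNA array of day 7. The other 5 genes spanned between 1.46-fold (Fgg) and 2.47-fold (Orm2).

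**Figure D1:**
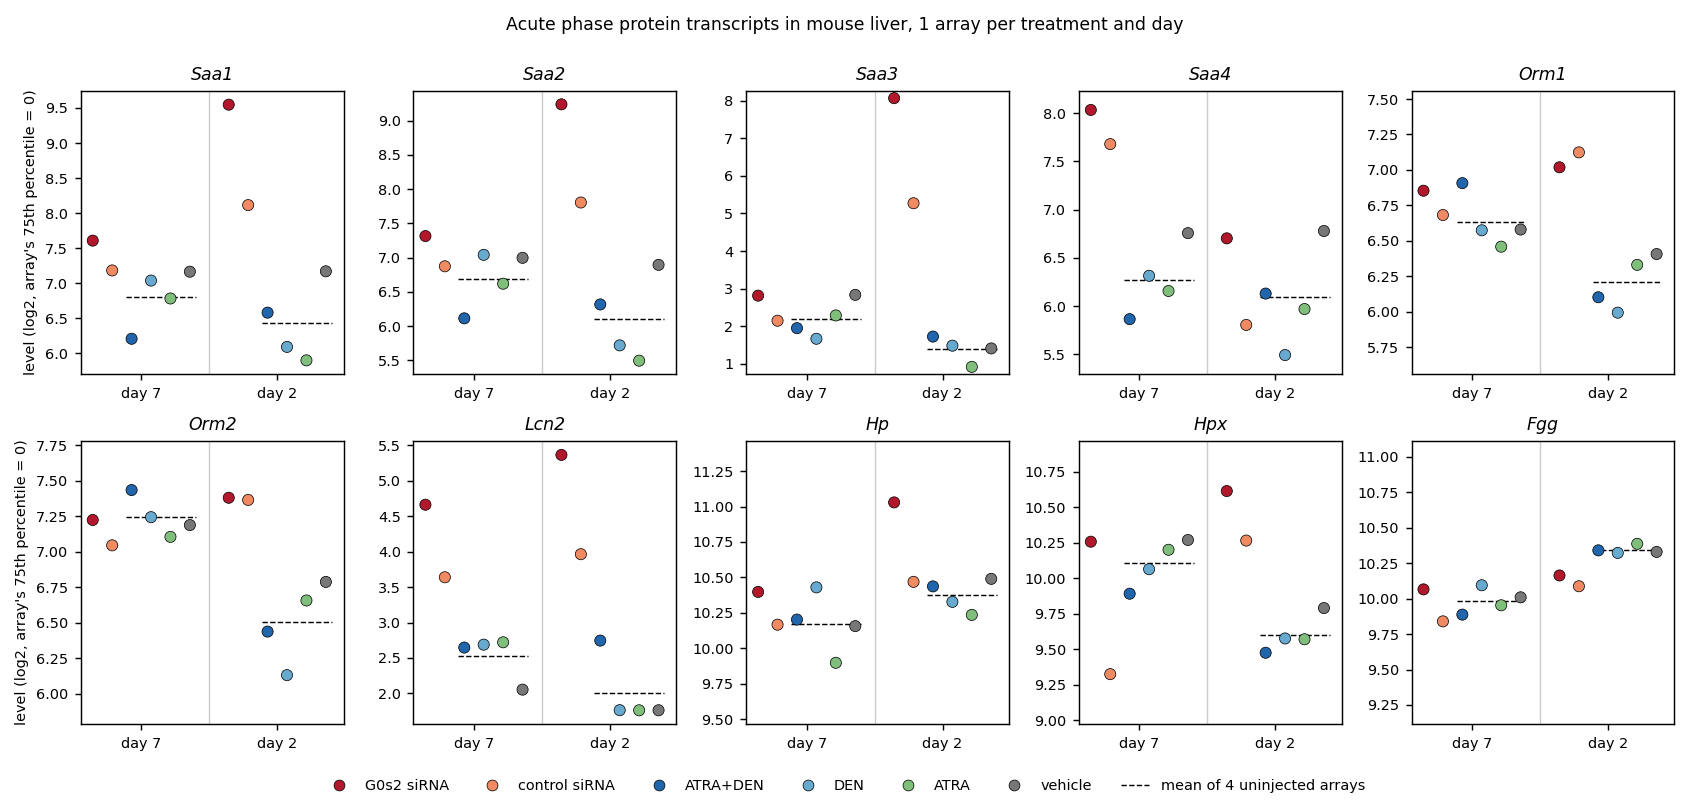
Level of each of the 10 transcripts on every array (log2, with the array's 75th percentile at 0). Each point is 1 array, coloured by treatment, with day 7 left of day 2, and the dashed line is the mean of the 4 uninjected arrays of that day. On the day 2 arrays the siRNA points of Saa1, Saa2, Saa3, Orm1, Orm2, Lcn2 and Hpx lie above all uninjected points.

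The siRNA arrays were set against the uninjected arrays to see how the transcripts stood after injection of a lipid-carried RNA. Over both days Lcn2 and Saa1 rose, 4.41-fold and 2.82-fold. The Saa3, Saa2 and Saa4 differences were 2.79, 1.41 and 0.87 on the log2 scale without passing the test. Without the G0s2 siRNA array of day 2 the Saa3 difference was 1.64, the Saa2 difference 0.89 and the Saa1 difference 1.00. With slide as a fixed block, the difference rests on the day 7 slide that holds both kinds of array. On that slide the Saa3, Saa2 and Saa1 differences were 0.36, 0.73 and 0.90. The Saa3, Saa2 and Saa1 values over both days thus rest largely on the day 2 siRNA arrays. At day 2 Saa3 rose 39.2-fold, and at day 7 Saa4 rose 3.00-fold. Fgg was the only one of the 10 with a negative difference over both days, -0.13, and it did not pass. Because each treatment has 1 array, different treatments stand in for replicates, and all p-values measure only the spread between these arrays. In liver tissue, a change in the number of cells of a type and a change in the RNA per cell cannot be told apart.

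Lcn2 had levels of 4.66 (G0s2 siRNA) and 3.64 (control siRNA) at day 7, against 2.65 (ATRA+DEN), 2.69 (DEN), 2.72 (ATRA) and 2.05 (vehicle). Its day 2 levels were 5.37 (G0s2 siRNA) and 3.96 (control siRNA), against 2.75 (ATRA+DEN) and 1.76 on each of the DEN, ATRA and vehicle arrays. The siRNA arrays were the 4 highest of the 12, and the groups did not overlap on either day. The log2 difference over both days was 2.14 (SE 0.34, limma adjusted p = 0.0147, 4 against 8 arrays). It was 1.62 (SE 0.34, adjusted p = 0.0588) at day 7 and 2.66 (SE 0.47, adjusted p = 0.0750) at day 2. Among all genes tested, 7.73% were called over both days, 4.07% higher and 3.66% lower, and the 2 called members of 10 were Lcn2 and Saa1. Lcn2 passed in all 12 fits that left out 1 array (log2 difference 1.75 to 2.46, adjusted p = 0.0172 to 0.0446). It did not pass on the slide of day 7 that holds both kinds of array, where the difference was 1.47 (SE 0.39, adjusted p = 0.174).

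Saa1 had levels of 7.61 (G0s2 siRNA) and 7.18 (control siRNA) at day 7, against 6.21 (ATRA+DEN), 7.04 (DEN), 6.78 (ATRA) and 7.17 (vehicle). At day 2 its levels were 9.55 (G0s2 siRNA) and 8.12 (control siRNA), against 6.58 (ATRA+DEN), 6.09 (DEN), 5.90 (ATRA) and 7.17 (vehicle). The groups were clearly apart at day 2, and at day 7 the control siRNA array exceeded the vehicle array by only 0.018. The difference over both days was 1.495 (SE 0.40, adjusted p = 0.0469), with 0.60 (SE 0.30) at day 7 and 2.39 (SE 0.50, adjusted p = 0.0977) at day 2. The call for Saa1 held in 4 of 27 alternative settings, and in 1 of the 12 that left out an array. Saa2, its near copy, had 7.31 (G0s2 siRNA) and 6.87 (control siRNA) at day 7, against 6.11 (ATRA+DEN), 7.04 (DEN), 6.62 (ATRA) and 7.00 (vehicle). Its day 2 levels were 9.24 (G0s2 siRNA) and 7.80 (control siRNA), against 6.32 (ATRA+DEN), 5.72 (DEN), 5.49 (ATRA) and 6.89 (vehicle). Saa2 overlapped between the groups at day 7 and stood apart at day 2, with a difference of 1.41 over both days (SE 0.44, adjusted p = 0.0720). The Saa1 and Saa2 profiles, each centred on its mean within a day, differed by a root mean square of only 0.084 over the 12 arrays. The copies share most of their sequence, so their probes may not measure them apart.

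Saa3 had levels of 2.81 (G0s2 siRNA) and 2.14 (control siRNA) at day 7, against 1.95 (ATRA+DEN), 1.66 (DEN), 2.29 (ATRA) and 2.83 (vehicle). On the day 2 arrays Saa3 had 8.07 (G0s2 siRNA) and 5.27 (control siRNA), against 1.72 (ATRA+DEN), 1.48 (DEN), 0.92 (ATRA) and 1.41 (vehicle). The groups overlapped at day 7, whereas at day 2 the lower siRNA array exceeded the highest uninjected array by 3.55. The difference was 0.30 (SE 0.37, adjusted p = 0.664) at day 7 and 5.29 (SE 0.73, adjusted p = 0.0390) at day 2, where 0.863% of genes were called higher and 0.184% lower. Saa3 was the only one of the 10 called at day 2. The siRNA difference at day 7 minus that at day 2 was -5.00 (SE 0.89, adjusted p = 0.0250), beside a background of 2.18% of genes called in either direction, 1.59% lower and 0.599% higher. That call was lost in 4 of the 12 fits that left out an array, namely without ATRA day 2, ATRA day 7, control siRNA day 7 or G0s2 siRNA day 7, with values from -5.33 to -4.66 and adjusted p from 0.0519 to 0.0742. Over all 12 such fits the value ran between -6.39, without control siRNA day 2, and -3.60, without G0s2 siRNA day 2, so its size depends on which siRNA array of day 2 is kept.

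Saa4 had levels of 8.03 (G0s2 siRNA) and 7.68 (control siRNA) at day 7, against 5.87 (ATRA+DEN), 6.31 (DEN), 6.16 (ATRA) and 6.76 (vehicle). At day 2 its levels were 6.70 (G0s2 siRNA) and 5.81 (control siRNA), against 6.13 (ATRA+DEN), 5.49 (DEN), 5.97 (ATRA) and 6.78 (vehicle). At day 7 its siRNA arrays stood apart by 0.92, where Saa1 was apart by only 0.018 and Saa2 and Saa3 overlapped. At day 2 the Saa4 arrays overlapped, unlike those of Saa1, Saa2 and Saa3. The Saa4 difference was 1.58 (SE 0.27, adjusted p = 0.0453) at day 7 and 0.16 (SE 0.40, adjusted p = 0.874) at day 2. At day 7 1.35% of genes were called higher and 1.69% lower, and Saa4 was the only one of the 10 called. On the day 7 slide that holds both kinds of array the difference was 1.85 (SE 0.23, adjusted p = 0.117), in a fit of 2 against 2 arrays that called 0 genes over the whole array and in which unadjusted p-values under 0.05 went to 9.45% of genes as higher and 11.1% as lower. The change of the Saa4 difference between days was 1.42 (SE 0.52, adjusted p = 0.180), which did not pass.

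Orm1 had levels of 6.85 (G0s2 siRNA) and 6.68 (control siRNA) at day 7, against 6.91 (ATRA+DEN), 6.57 (DEN), 6.46 (ATRA) and 6.58 (vehicle). On the day 2 arrays Orm1 had 7.02 (G0s2 siRNA) and 7.12 (control siRNA), against 6.10 (ATRA+DEN), 5.99 (DEN), 6.33 (ATRA) and 6.41 (vehicle). The groups overlapped at day 7 and were apart at day 2, with differences of 0.14 (SE 0.18) and 0.86 (SE 0.16, adjusted p = 0.0794). Orm2 had levels of 7.22 (G0s2 siRNA) and 7.05 (control siRNA) at day 7, against 7.43 (ATRA+DEN), 7.24 (DEN), 7.10 (ATRA) and 7.19 (vehicle). Its day 2 levels were 7.38 (G0s2 siRNA) and 7.37 (control siRNA), against 6.44 (ATRA+DEN), 6.13 (DEN), 6.66 (ATRA) and 6.79 (vehicle). The Orm2 difference was -0.11 (SE 0.16) at day 7 and 0.87 (SE 0.20, adjusted p = 0.119) at day 2, again apart only at day 2. Orm1 and Orm2 are close copies, and their centred profiles differed by a root mean square of 0.11.

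Hpx had levels of 10.26 (G0s2 siRNA) and 9.32 (control siRNA) at day 7, against 9.89 (ATRA+DEN), 10.06 (DEN), 10.20 (ATRA) and 10.27 (vehicle). On the day 2 arrays Hpx had 10.61 (G0s2 siRNA) and 10.27 (control siRNA), against 9.47 (ATRA+DEN), 9.57 (DEN), 9.57 (ATRA) and 9.79 (vehicle). The control siRNA array of day 7 was the lowest of the 12, and at day 2 both siRNA arrays were above the others. The differences were -0.32 (SE 0.28) at day 7 and 0.84 (SE 0.16, adjusted p = 0.0826) at day 2. Hp had levels of 10.40 (G0s2 siRNA) and 10.17 (control siRNA) at day 7, against 10.20 (ATRA+DEN), 10.43 (DEN), 9.90 (ATRA) and 10.16 (vehicle). At day 2 Hp had 11.03 (G0s2 siRNA) and 10.47 (control siRNA), against 10.44 (ATRA+DEN), 10.33 (DEN), 10.24 (ATRA) and 10.49 (vehicle). The Hp groups overlapped on both days, and only its G0s2 siRNA array of day 2 stood above the rest. Fgg had levels of 10.07 (G0s2 siRNA) and 9.84 (control siRNA) at day 7, against 9.89 (ATRA+DEN), 10.09 (DEN), 9.95 (ATRA) and 10.01 (vehicle). At day 2 Fgg had 10.16 (G0s2 siRNA) and 10.09 (control siRNA), against 10.34 (ATRA+DEN), 10.32 (DEN), 10.39 (ATRA) and 10.33 (vehicle). Both siRNA arrays were below all others at day 2, by a difference of -0.22 (SE 0.11, adjusted p = 0.352), and overlapped them at day 7.

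Counted by overlap, at day 7 the siRNA arrays stood above all uninjected arrays for 3 of the 10 genes (Saa1, Saa4 and Lcn2), against 20% of all genes tested, and below them for 0, against 18.1%. At day 2 they stood above for 7 of the 10 (Saa1, Saa2, Saa3, Orm1, Orm2, Lcn2 and Hpx), against 17.8% of all genes, and below for Fgg, against 12.2%. Saa1 and Lcn2 stood above on both days, as did 5.66% of all genes. The day 7 share of members is near the background of the array. The median difference of the 10 genes was 0.22 at day 7 and 0.87 at day 2, while that of all genes was 0.02 and 0.03 on the same days.

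Set against the ATRA+DEN and DEN arrays alone, the siRNA difference was 1.95 (SE 0.42, adjusted p = 0.110) for Lcn2, 1.63 (SE 0.47, adjusted p = 0.135) for Saa1, 2.87 (SE 0.98, adjusted p = 0.169) for Saa3 and 1.1045 (SE 0.35, adjusted p = 0.154) for Saa4. These values are within the standard errors of those against all 8 uninjected arrays, and 0 of the 10 genes passed there. That fit of 4 against 4 arrays called 1 gene of the whole array.

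**Figure D2:**
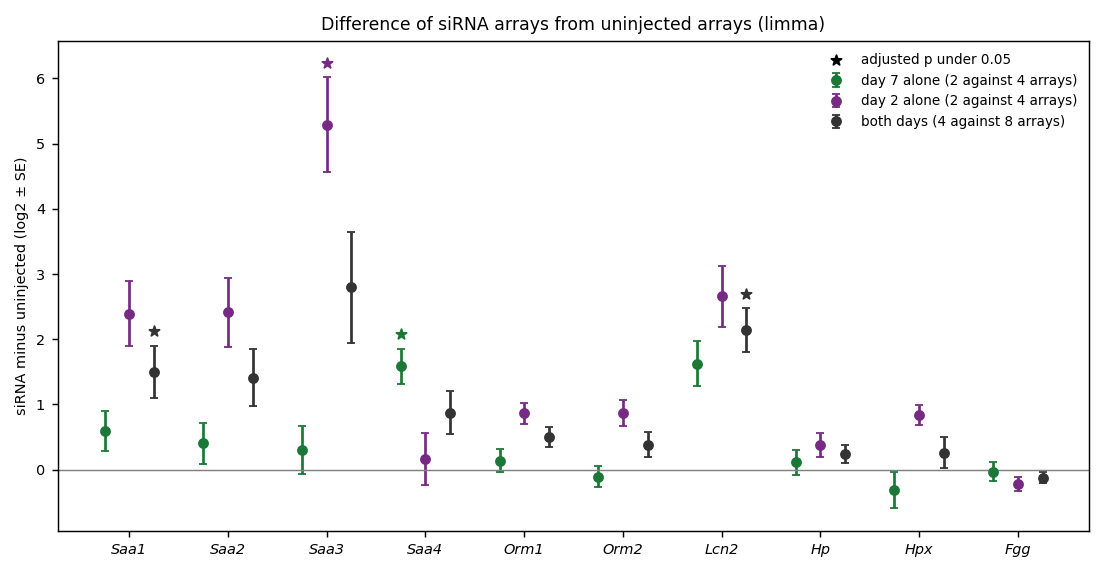
Difference of the siRNA arrays from the uninjected arrays for each transcript (log2, limma estimate with its SE), at day 7, at day 2 and over both days. Stars mark an adjusted p under 0.05: Saa4 at day 7, Saa3 at day 2, and Saa1 and Lcn2 over both days.

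Macrophage genes were also higher on the siRNA arrays of day 2. Over both days 4 of 12 markers of Kupffer cells and macrophages, the liver's resident phagocytes, were called higher (Lyz2, Cd5l, C1qb and C1qa) and 0 lower, where 4.07% of all genes were called higher. All 12 stood above all uninjected arrays at day 2, as did 17.8% of all genes, and 8 of them were called higher there, as were 0.863% of all genes, with a median difference of -0.05 at day 7 and 1.32 at day 2. The summed level of the 12 was 6.31 to 7.04 in siRNA arrays against 6.56 to 6.96 in uninjected arrays at day 7. At day 2 it was 7.81 (G0s2 siRNA) and 8.38 (control siRNA) against 6.45 to 6.59 in uninjected arrays. Between those siRNA arrays the order was the reverse of that of Saa1, Saa2, Saa3 and Lcn2, which were higher in G0s2 siRNA. The siRNA difference of the markers at day 7 minus that at day 2 was called lower for 6 of the 12, and for 1.59% of all genes. Cd5l, a scavenger protein of Kupffer cells, had a difference of 0.65 at day 7 and 2.26 at day 2 (adjusted p = 0.0204 at day 2). Their part in the Saa, Orm, Lcn2 and Hpx values was not tested.

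Neutrophils carry Lcn2 in their granules, and their markers were mostly dim. Of 16 neutrophil markers, 8 were above background on fewer than 2 arrays and were not tested, among them the granule genes Mpo, Ngp and Ltf. Of the 8 tested, 0 were called higher and 1 lower, where 4.07% of all genes were called higher and 3.66% lower. The called gene was the cytokine receptor Csf3r, with -0.46 (SE 0.10, adjusted p = 0.0253). The other genes mostly lay the other way without passing: 6 of the 8 had a difference above 0, the median of the 8 was 0.23 over both days and 0.60 at day 2, and Ly6g had 0.85 (SE 0.29), Camp 0.68 (SE 0.22), S100a8 0.65 (SE 0.42) and S100a9 0.38 (SE 0.36). These 4 are named after their values were seen. The summed level of the 8, which Csf3r dominates and which therefore does not show the rest of the list, was 6.79 to 7.03 in siRNA arrays against 7.20 to 7.53 in uninjected arrays at day 7. At day 2 it was 7.21 to 7.24 in siRNA arrays against 7.51 to 7.75 in uninjected arrays. Hepatocyte markers had 3 called higher (Tdo2, Arg1 and Fah) and 1 lower (Apob) of 15, beside the same shares of all genes. Their summed level was 12.36 to 12.41 in siRNA arrays against 12.14 to 12.40 in uninjected arrays at day 7. At day 2 that sum was 11.92 to 12.15 in siRNA arrays against 11.94 to 12.25 in uninjected arrays. Stellate and endothelial markers had 1 called higher of 12 (Lyve1, 1.34, SE 0.32), and fat, pancreas and muscle markers 0 of 6, beside 4.07% of all genes. Erythroid markers had 1 called higher of 8 (Car2, 0.87, SE 0.22), beside the same 4.07%. At day 7 alone 2 of the 8 were called higher, beside 1.35% of all genes. These were the globins Hba-a1 (3.34, adjusted p = 0.0403) and Hbb-b1 (3.44, adjusted p = 0.0422), named after their values were seen. Alas2 had -0.60 and Epb4.2 -2.73 at that day. The summed erythroid level at day 7 was 7.55 to 7.82 in siRNA arrays against 4.94 to 6.77 in uninjected arrays. Globins dominate the siRNA sums and Alas2 the highest uninjected sum, so the sum does not show the whole list. At day 2 the erythroid sum was 6.04 to 6.69 in siRNA arrays against 5.86 to 7.44 in uninjected arrays. The part of these cell types in the Saa4 and Lcn2 values of day 7 was not tested.

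**Figure D3:**
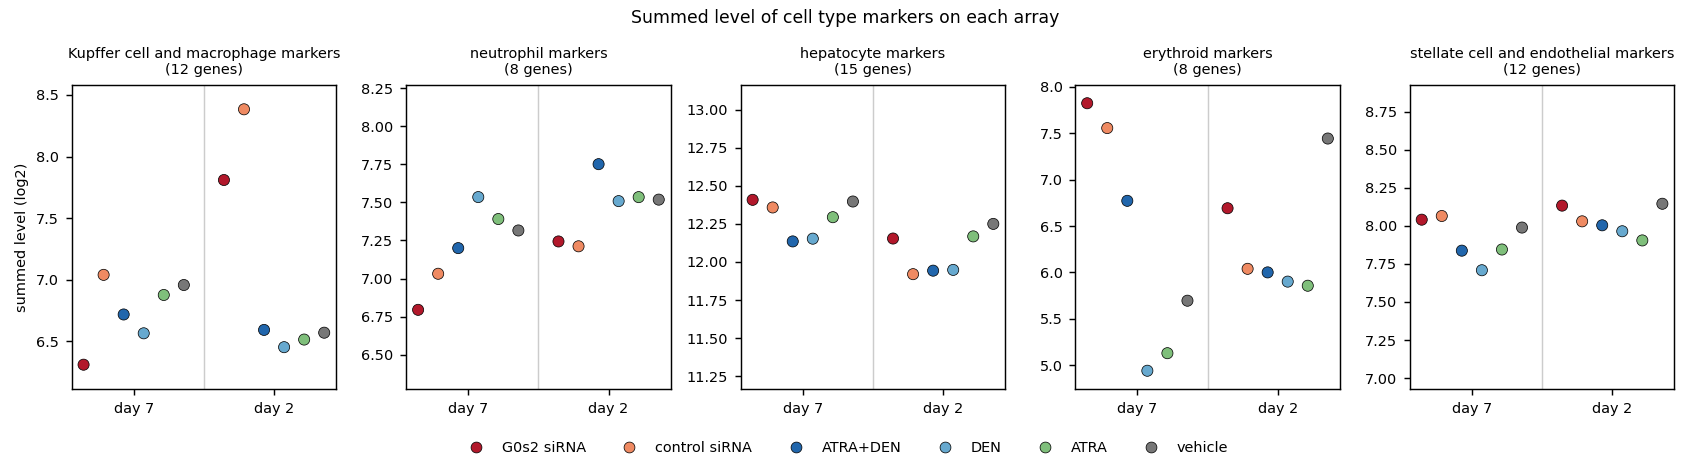
Summed level of the tested markers of 5 cell types on every array (log2 of the sum of linear levels), coloured by treatment, with day 7 left of day 2. The Kupffer cell and macrophage sum of both siRNA arrays lies above all uninjected arrays at day 2, and the erythroid sum of both siRNA arrays does so at day 7.

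Among 27 other positive acute phase genes tested, 3 were called higher over both days and 0 lower, beside 4.07% and 3.66% of all genes. Serpina3n, a protease inhibitor, rose by 1.11 (SE 0.18, adjusted p = 0.0147), Steap4, a metalloreductase, by 0.58 (SE 0.13, adjusted p = 0.0289), and Crp, C-reactive protein, by 0.57 (SE 0.15, adjusted p = 0.0382). The list's median was 0.15, against 0.03 for all genes. The partners of Fgg in fibrinogen, Fga and Fgb, had differences of 0.11 (SE 0.14) and 0.01 (SE 0.08). Apcs, serum amyloid P, had 0.55 (SE 0.33) and the iron hormone Hamp -0.04 (SE 0.31), neither of which passed. At day 7 alone 3 genes of the list were called higher, where 1.35% of all genes were. These were Serpina3n with 1.46 (adjusted p = 0.0304), the endotoxin carrier Lbp with 1.06 (adjusted p = 0.0408) and the metallothionein Mt1 with 4.38 (adjusted p = 0.0451). Lbp and Mt1 are named here after their values were seen. At day 2 alone 0 of the 27 were called by limma, whose background there was 0.863% higher. Of 15 negative acute phase genes, which fall in inflammation, 0 were called in either direction, beside 7.73% of all genes, with a median of 0.01. Apoa4 had 0.92 (SE 0.27, adjusted p = 0.0603) over both days and rose by 1.44 (adjusted p = 0.0405) at day 7, while Ces1c and Apoa1 each had 0.32.

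The cytokines Il6, Tnf, Osm, Lif and Il11 were above background on fewer than 2 arrays and were not tested. Of 11 cytokine and receptor genes tested 1 was called, beside 7.73% of all genes. It was Il6ra, the interleukin 6 receptor, which rose by 0.99 (SE 0.21, adjusted p = 0.0235). Il1b, above background on 10 arrays, had -2.11 at day 7 and 1.54 at day 2. That difference between the days, -3.65, passed (adjusted p = 0.0362), beside 2.18% of all genes. It rests on low values, since the siRNA arrays of day 7 had the lowest Il1b levels, -4.09 (G0s2 siRNA) and -3.96 (control siRNA). Of 26 signalling genes 2 were called higher and 0 lower, where 4.07% of all genes were called higher and 3.66% lower, so the count is near the background and nothing is read from it for the list. Cebpd, a C/EBP transcription factor of the acute phase, rose by 1.09 (SE 0.14, adjusted p = 0.0138), and Fkbp5, a target of the glucocorticoid receptor, by 1.45 (SE 0.34, adjusted p = 0.0300). Cebpb had 0.23 (SE 0.12), Stat3 -0.41 (SE 0.18) and Socs3, the feedback inhibitor that STAT3 induces, -0.35 (SE 0.35), and these did not pass. Of 12 genes of haem, haemoglobin and iron handling, 0 were called, beside 7.73% of all genes. Among them the haptoglobin receptor Cd163 had 0.76 (SE 0.41, above background on 3 arrays), the metal transporter Slc11a1 0.70 (SE 0.31) and the haem oxygenase Hmox1 0.60 (SE 0.22). Slc11a1, which macrophages express, rose by 1.59 (adjusted p = 0.0318) at day 2 alone.

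Of 15760 genes above background on all 12 arrays, those with predicted or clone names were passed over. The named profiles nearest to the mean of Saa1 and Saa2 were those of Lgals3, Cd5l, Gfra2, H2-Q6 and Alox5ap. Their root mean square differences were 0.53 to 0.59 after centring within days. The nearest to Lcn2 were Gzma, Ly6e, Il18bp, Pld4 and Cd5l, with 0.60 to 0.68. Lgals3, galectin-3, had levels of 1.29 (G0s2 siRNA) and 1.72 (control siRNA) at day 7, against 1.14 to 1.21 on the uninjected arrays. At day 2 it had 2.54 (G0s2 siRNA) and 2.24 (control siRNA), against 0.63 to 1.23. Gzma, granzyme A of cytotoxic lymphocytes, had levels of 0.16 (G0s2 siRNA) and -0.62 (control siRNA) at day 7, against -1.34 to -0.14 on the uninjected arrays. At day 2 it had 2.00 (G0s2 siRNA) and 2.17 (control siRNA), against -1.33 to -0.45. These genes were chosen by their likeness, and the distances are a description over 12 arrays.

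The G0s2 siRNA arrays were set against the control siRNA arrays to see what lowering G0s2 does. The mean difference over both days was above 0 for all 10 genes, from 0.03 (Orm1) to 1.73 (Saa3), and 0 of them passed (limma adjusted p = 0.668 to 0.983). No gene of the array was called in this fit (0% in either direction), in which unadjusted p-values under 0.05 went to 4.07% of genes as higher and 2.71% as lower. Of all 21198 genes, 12677 had a mean difference above 0. The differences were 1.21 (SE 0.29) for Lcn2, 1.73 (SE 0.61) for Saa3, 0.94 (SE 0.48) for Saa2, 0.93 (SE 0.44) for Saa1, 0.64 (SE 0.17) for Hpx, 0.63 (SE 0.34) for Saa4 and 0.40 (SE 0.17) for Hp. Between the single arrays Lcn2 was 2.03-fold higher in G0s2 siRNA than in control siRNA at day 7 and was the only member past 2-fold, where 4.35% of all genes were. At day 2 Saa3 was 6.95-fold, Saa2 2.70-fold, Saa1 2.70-fold and Lcn2 2.64-fold higher, and these 4 members past 2-fold stand beside 2.66% of all genes. All 12 Kupffer cell and macrophage markers went the other way, with a median of -0.63, and 0 of them were called. Differences of single arrays carry no error. The count of 10 genes above 0 depends on the processing. Over 3 alternatives the Orm1 difference between the single arrays was -0.26 to -0.14 at day 2 and -0.053 to 0.071 at day 7. The Fgg difference between the single arrays of day 2 was -0.13 to -0.040 over the same alternatives.

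DEN was set against no DEN over 4 pairs of arrays, to see what the carcinogen does within days. None of the 10 genes was called (limma adjusted p = 0.481 to 0.978), nor was any other gene (0%), while 5.48% of genes were higher and 6.79% lower by unadjusted p-values under 0.05. The mean differences lay between -0.46 (Saa4, SE 0.24) and 0.39 (Lcn2, SE 0.20). Hpx was lower with DEN in all 4 pairs, with a mean of -0.21 (SE 0.12), and 12.6% of all genes were lower in all 4 pairs. At day 7 the DEN array was below the vehicle array by more than 2-fold for 1 gene, Saa3 (2.25-fold), where 6.06% of all genes were. At day 2 it was so for 3 genes, Saa4 (2.44-fold), Saa2 (2.26-fold) and Saa1 (2.11-fold), where 3.68% of all genes were. With ATRA present, the ATRA+DEN array was above the ATRA array at day 2 by 0.98 for Lcn2, 0.82 for Saa2, 0.81 for Saa3 and 0.68 for Saa1. At day 7 the same pair differed by -0.07 for Lcn2, -0.51 for Saa2, -0.34 for Saa3 and -0.57 for Saa1. The Saa genes thus differed in sign between the pairs.

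ATRA was set against no ATRA over 4 pairs of uninjected arrays. In both pairs of day 7 the array with ATRA lay on another slide, with another scan session, than its partner. ATRA, slide and scan cannot be told apart in those pairs. None of the 10 genes was called (limma adjusted p = 0.877 to 0.966), nor was any other gene (0%), while 3.48% of genes were higher and 2.34% lower by unadjusted p-values under 0.05. The mean differences were -0.53 (SE 0.34) for Saa2, -0.50 (SE 0.30) for Saa1, -0.31 (SE 0.27) for Saa4 and 0.40 (SE 0.22) for Lcn2. At day 7 0 of the genes were 2-fold apart between the ATRA and vehicle arrays. At day 2 the ATRA array was below the vehicle array by 2.64-fold for Saa2 and 2.41-fold for Saa1, where 3.37% of all genes were that far below. The DEN and ATRA comparisons with vehicle share the vehicle array of that day, which had the highest uninjected level of Saa1, Saa2 and Saa4 at day 2. Hpx was lower with ATRA in all 4 pairs (mean -0.14, SE 0.10), as were 7.09% of all genes.

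**Figure D4:**
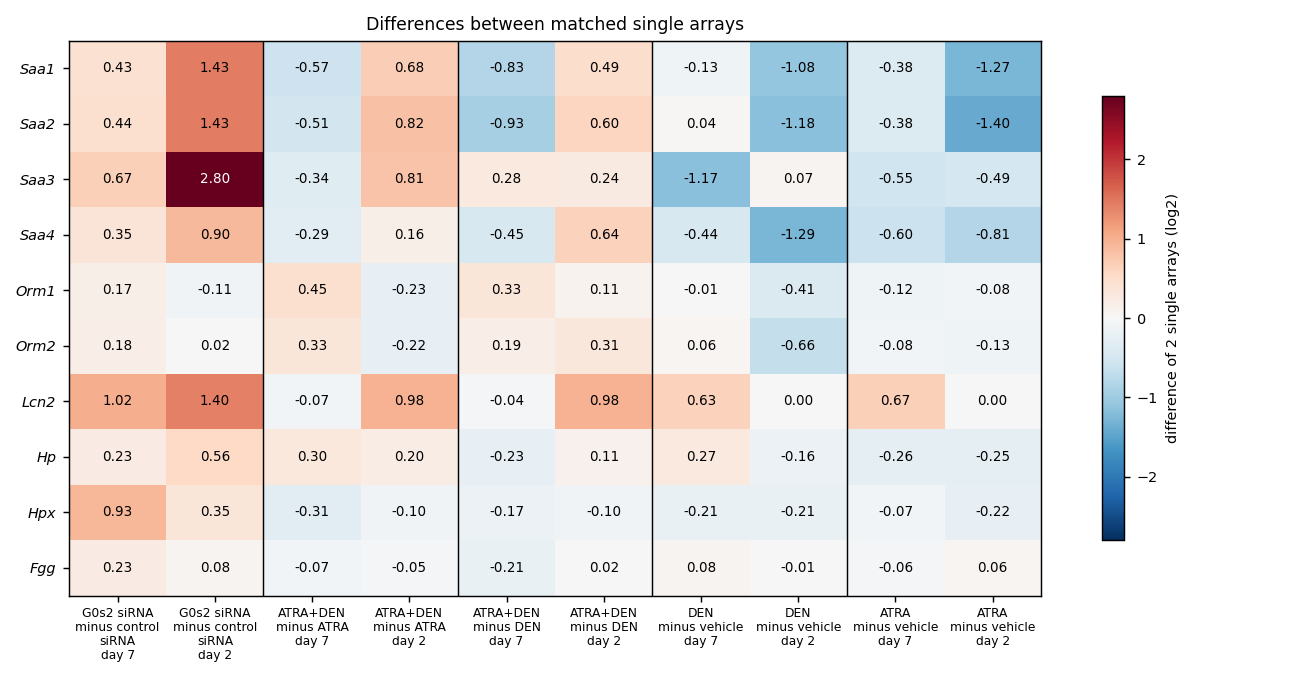
Log2 differences between matched single arrays for the 10 transcripts, with the comparison on the horizontal axis and day 7 left of day 2 in each pair of columns. The largest value is that of Saa3 between G0s2 siRNA and control siRNA at day 2 (2.798), and Saa1 and Saa2 are below vehicle by more than 1 in DEN and in ATRA at day 2.

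Day 7 was set against day 2 over 6 pairs of the same treatment. Fgg fell by 0.30 on the log2 scale (SE 0.09, adjusted p = 0.0359) and was the only one of the 10 called, beside a background of 46.8% of genes called, 26.3% higher and 20.5% lower. After quantile normalization the Fgg difference was -0.0025 (adjusted p = 0.984). Saa4 had 0.65 (SE 0.29, adjusted p = 0.106), Orm2 0.41 (SE 0.21, adjusted p = 0.149) and Hp -0.29 (SE 0.11, adjusted p = 0.0740). Day, slide and scan cannot be told apart, since no slide or scan session holds both days.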

How the data were processed

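Liver RNA was isolated with TRIzol, per the labels' protocols, and hybridised in 1 colour. Spot intensities, background-subtracted by Agilent Feature Extraction 10.7.1.1 per the file headers, were deposited for every array, with probe positions on mm9. For that program the submitters' processing notes give 9.5.1.1. A series table of normalized intensities by the authors, whose ranked values differed by at most 0.083% between arrays of a day, served as an alternative.

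Control spots and flagged outliers were left out, spots of a probe were averaged, and log2 values of the deposited intensities were taken minus each array's 75th percentile. A gene was represented by its brightest probe (mean level), and entered the tests when 2 or more of the 12 arrays had it well above background. Tests used limma 3.58.1 in R 4.3.3, with Benjamini-Hochberg adjustment over 21198 genes and a threshold of 0.05. The siRNA fit had day as a term, the DEN, ATRA and G0s2 fits had the pair as a block, and the day fit had treatment as a block. With 1 array per group, the number of arrays limits the precision. On simulated data the siRNA fit recovered 56% of 50 genes changed by 1 and 94% of 50 changed by 2 on the log2 scale, and the G0s2 fit 4% and 58%.

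Besides the 10 genes, named genes were up to 4 called members of each list, or up to 3 with the largest difference where none was called, a set of 14 genes, and the 5 profiles nearest to Saa1 with Saa2 and to Lcn2. Cdkn1a, Mdm2 and Cyp26a1 were added after their values were seen. The 10 members, the lists and the alternatives were chosen with earlier results of these data known. Alternatives were quantile normalization, normexp background, other probe and filter rules, slide as a block, single days or slides, other sets of uninjected arrays, DEN and ATRA terms, the series table, day 7 groups from the treatment field, and leaving out arrays.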

Additional observations from a re-analysis of the deposited data

Results flagged for a closer look

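Saa3 stood out because its siRNA difference changed between the days by a test of the change itself. The difference at day 7 minus that at day 2 was -5.00 (SE 0.89, limma adjusted p = 0.0250), with 0.30 at day 7 and 5.29 at day 2. The Kupffer cell and macrophage sum was 6.31 (G0s2 siRNA) and 7.04 (control siRNA) against 6.56 to 6.96 in uninjected arrays at day 7. At day 2 it was 7.81 (G0s2 siRNA) and 8.38 (control siRNA) against 6.45 to 6.59 in uninjected arrays. Saa3 had the reverse order at day 2, with 8.07 (G0s2 siRNA) and 5.27 (control siRNA). The part of the macrophage sum in the Saa3 value was not tested.

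In 3 cases the pairs of one day differed one way and those of the other day the opposite way, a difference between days that was not tested. Saa3 was lower with DEN in both pairs of day 7 and higher in both pairs of day 2, with a mean of -0.16 over the 4 pairs. Orm2 was higher with DEN in both pairs of day 7 and lower in both of day 2, with a mean of -0.12. Fgg was lower with ATRA in both pairs of day 7 and higher in both of day 2, with a mean of -0.047. The ATRA pairs of day 7 lie across slides, so ATRA and slide cannot be told apart in them.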

How the results depend on the processing

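Over all genes, the 1639 calls of the siRNA comparison became 478 without a filter on dim probes, 222 at day 2 alone, 646 at day 7 alone, 0 on the day 7 slide with both kinds of array (an alternative added after seeing the data), 1 against ATRA+DEN and DEN arrays only, 88 against ATRA and vehicle arrays only, and 19 or 4 with DEN and ATRA as terms and the siRNA arrays coded without or with DEN. Leaving out 1 array gave 257 to 1535 calls. The 463 calls for the change of the siRNA difference between days became 766 with normexp background and 178 without a filter, and 14 to 507 when 1 array was left out. Normexp background gave 13 calls for DEN and 4 for G0s2 siRNA, in place of 0, and leaving out a pair gave 0 to 1 for G0s2 siRNA. Lcn2 passed in 19 of 27 alternatives of the siRNA comparison, with differences from 1.47 to 2.66. Saa1 passed in 4 of 27, with 0.60 to 2.39. The Saa3 change between days passed in 13 of 17. Signs reversed, never past the threshold, for Orm2 (-0.11 at day 7 alone, -0.14 with slide as a fixed block and on the shared slide alone), Hpx (-0.32 at day 7 alone, -0.26 with slide as a block and on the shared slide), Fgg (0.032 with slide as a block and on the shared slide), the change of Hp between days when 1 array was left out (-0.55 to 0.015, the upper end without G0s2 siRNA at day 2), Hp between days after quantile normalization (0.13), and Saa3 between days when a pair was left out (-1.32 to 0.015, the upper end without the G0s2 siRNA pair). The fixed slide block and the shared slide alone give the same contrast, since no other slide holds both kinds of array. The single-array differences of G0s2 siRNA from control siRNA also changed sign for some genes over 3 alternatives. At day 2 they ran from -0.17 to 0.015 for Orm2 (main value 0.015) and from -0.13 to -0.040 for Fgg (main value 0.075). At day 7 they ran from -0.053 to 0.071 for Orm1 (0.17), -0.012 to 0.076 for Orm2 (0.18) and -0.061 to 0.18 for Hp (0.23). The cause of these changes was not tested. The 1 array per group and the slides that follow siRNA, day and, at day 7, ATRA set the limits of all comparisons. In the siRNA comparison, scaling alone moved the median of all genes by under 0.1, but single genes could move more. Quantile normalization took the siRNA difference of Orm1 from 0.50 to 0.35. It took the Fgg difference between days from -0.30 to -0.0025.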
